A study of Mus musculus with 19 samples.

Results

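Nuclear genes named for subunits of respiratory complexes II to V were followed in 19 mouse embryos sequenced one by one. The members were the protein-coding genes named Sdha, Sdhb, Sdhc or Sdhd, or with a symbol that begins with Uqcr, Cox4i, Cox5, Cox6, Cox7, Cox8 or Atp5. The choice used symbols alone and no measured value, and it also takes in Atp5s, a coupling factor, and Cox7a2l, a factor of supercomplex assembly. It gave 46 of 53379 gene rows, with 4 members in complex II, 8 in complex III, 18 in complex IV and 16 in complex V. All 46 had at least 1 count, and 44 passed the filter on low values and were tested.

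Embryos were made by in vitro fertilisation between mice heterozygous for a deletion in Alyref (Alyref+/-), between mice heterozygous for a deletion in Gabpb1 (Gabpb1+/-), or between wild-type (WT) mice, and the strain given for the samples is B6D2F1. They grew in KSOM medium at 37 degrees C under 5% CO2 and were taken 96 hours after insemination. From the Alyref cross came 2 KO morulae (Alyref-/-), 3 morulae that were not KO (non-KO) and 3 blastocysts of the non-KO kind. From the Gabpb1 cross came 3 morulae labelled KO (Gabpb1-/-), 2 non-KO morulae and 3 blastocysts of the non-KO kind, and WT parents gave 3 blastocysts. The KO embryos were picked by the submitters as those without reads over the deleted region in these same libraries, so a non-KO embryo may be WT or heterozygous. No KO blastocyst is among the samples. Morulae and blastocysts of a cross were taken at the same age, so the stage comparisons are between embryos that differed in form at 1 time point. The labels give no batch, and cross and batch cannot be told apart. The sources used here do not say whether embryos of a group came from separate fertilisations, so p-values measure the spread between these embryos.

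The respiratory chain sits in the inner mitochondrial membrane. Complex II, succinate dehydrogenase, passes electrons from succinate to ubiquinone and is the complex with no subunit encoded in mitochondrial DNA. Complex III passes electrons from ubiquinol to cytochrome c, complex IV (cytochrome c oxidase) passes them to oxygen, and complex V (ATP synthase) uses the proton gradient to make ATP. The preimplantation embryo turns from pyruvate and lactate towards glucose and takes up more oxygen as it forms a blastocyst cavity. GABP, in which Gabpb1 is the subunit that carries the activation domain and Gabpa the subunit that binds DNA through an ETS domain, has long been known as nuclear respiratory factor 2, a regulator of genes of this kind. Alyref is an adaptor that joins spliced mRNA to the export machinery.

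Promoter sequence of the members was looked up by symbol in RefSeq promoter windows (GRCm38.p6, 250 bases before to 50 after the start), and 36 of the 46 members matched. The motif CCGGAAG, the core of ETS family sites, was found on either strand in 12 of the 36 (33.3%), against 9.93% of all genes with a window and 20.8% of the tested genes with one. GCGCATG, letters of the NRF1 core, was in 8 of the 36 (22.2%), against 8.15% of tested genes, and AAGATGG, the YY1 core, in 4 (11.1%), against 8.58%. None of these 3 motifs contains another. Shown here are 130 bases (100 before to 30 after the start) for Sdhd and Cox6b1, the 2 members with the smallest adjusted p in the comparison of morulae labelled Gabpb1 KO, for Sdhb, which holds the same letters and had a value near 0 there, and for Uqcr10 and Atp5g1, which had positive values there. Capitals mark CCGGAAG or its reverse complement. The windows lie at chr9:50603820-50603949 (minus strand) for Sdhd, chr7:30626085-30626214 (minus) for Cox6b1, chr4:140961171-140961300 (plus) for Sdhb, chr11:4704315-4704444 (minus) for Uqcr10 and chr11:96075602-96075731 (minus) for Atp5g1.
Sdhd: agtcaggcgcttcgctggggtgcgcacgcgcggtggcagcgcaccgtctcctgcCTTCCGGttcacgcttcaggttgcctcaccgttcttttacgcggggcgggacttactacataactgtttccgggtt
Cox6b1: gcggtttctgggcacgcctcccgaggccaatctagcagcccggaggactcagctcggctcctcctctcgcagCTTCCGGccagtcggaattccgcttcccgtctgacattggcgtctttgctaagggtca
Sdhb: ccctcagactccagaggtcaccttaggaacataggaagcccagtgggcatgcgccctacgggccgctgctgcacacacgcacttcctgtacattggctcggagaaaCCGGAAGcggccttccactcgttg
Uqcr10: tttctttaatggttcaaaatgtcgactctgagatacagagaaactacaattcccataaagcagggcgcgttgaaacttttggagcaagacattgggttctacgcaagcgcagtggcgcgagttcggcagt
Atp5g1: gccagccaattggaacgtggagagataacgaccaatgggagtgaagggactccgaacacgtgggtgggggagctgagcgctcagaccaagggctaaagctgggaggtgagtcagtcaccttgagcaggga
The motif began at position -46 from the start in Sdhd, -28 in Cox6b1 and 7 in Sdhb. The windows of Uqcr10 and Atp5g1 hold no exact match. Of the 12 members with CCGGAAG, 5 had positive and 7 negative values in that comparison. Uqcrb, which also had a positive value, had no window. A match to these letters is a description of the sequence and not evidence of binding.

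Gene counts per embryo, in units of 1e6, ranged from 7.49 to 31.5 with a median of 13.6. Alyref was at 47.8 and 58.5 CPM in the Alyref KO morulae and at 211, 291 and 162 CPM in their non-KO counterparts (log2 fold change -2.06, SE 0.30, adjusted p 0.0227), a call lost in 5 of 13 alternatives: with spike-in scaling (adjusted p 0.89), with only the groups compared (0.56), without either KO morula (0.14 and 0.15) and without the first non-KO morula (0.065). Its log2 values ran from -2.24 to -1.81 over all 13. The KO embryos were picked by missing reads over the deleted region in these same libraries. A lower Alyref count was therefore partly fixed by that choice, and the test is no independent check of the label. CPM are counts per 1e6 of an embryo's gene counts after TMM scaling. For Gabpb1 itself the KO label did not go with a lower count, at 78.1, 259 and 150 CPM in embryos so labelled against 93.8 and 83.2 CPM in non-KO morulae (log2 fold change 0.88, SE 0.39, adjusted p 0.243), and counts per gene cannot show the deleted exons. Trophectoderm markers (Cdx2, Krt8, Krt18, Gata3 and Eomes) summed to 243 to 3906 CPM in morulae and 3848 to 6538 CPM in blastocysts. The 8 markers of cumulus and granulosa cells, of which 2 to 6 were at 0 throughout a group, summed to at most 0.96 CPM, and the 4 of sperm to at most 2.01 CPM.

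Most of the members were among the more abundant mRNAs of the embryo. On the FPKM scale, which divides by gene length and so allows genes to be compared, 12 of the 44 tested members were within the top 1% of the 18410 tested genes in WT blastocysts and 31 were within the top 5%. The highest were Cox8a, a small subunit of complex IV, at 1718 ± 138 FPKM (SD, n = 3), Uqcr10, a small subunit of complex III, at 1186 ± 66.3, and Cox6a1, another small subunit of complex IV, at 1119 ± 151. Uqcr10 and Cox6a1 differed by less than their spread, while Cox8a lay above both by more than the SDs. At the other end of the tested members were Cox6a2 at 0.032 FPKM, Cox8c at 0.59 and Cox7b2 at 3.23, each a paralog known from muscle or testis.

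Within complexes the levels in WT blastocysts were unequal. In complex II the iron-sulfur subunit Sdhb was at 239 FPKM and the membrane anchor Sdhd at 297, whereas the flavoprotein Sdha was at 58.3 and the other anchor Sdhc at 44.2. In complex III the core proteins Uqcrc1 and Uqcrc2 were at 228 and 145 FPKM and the Rieske iron-sulfur protein Uqcrfs1 at 278, below the small subunits Uqcr10, Uqcrb (673) and Uqcr11 (671). The small subunits Uqcrh (247) and Uqcrq (221) lay below Uqcrfs1 and above Uqcrc2, with Uqcrc1 between them. In complex V the catalytic beta subunit Atp5b was at 631 FPKM and the alpha subunit Atp5a1 at 496, with the central stalk subunits Atp5c1 at 529, Atp5d at 329 and Atp5e at 137. FPKM rest on the merged exon length of a gene, which can exceed that of the transcript in use. The median merged exon length was 1613.5 bases for the members and 2189.5 for tested genes.

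The members together took 1.19% to 1.96% of an embryo's gene counts in the 10 morulae and 2.13% to 2.79% in the 9 blastocysts, without overlap. Among morulae the share was 1.23% and 1.30% in Alyref KO embryos, 1.34%, 1.19% and 1.80% in the non-KO embryos of that cross, 1.83%, 1.69% and 1.62% in embryos labelled Gabpb1 KO, and 1.96% and 1.73% in the non-KO embryos of that cross. The third Alyref cross non-KO morula stood apart from its group, near the morulae of the Gabpb1 cross. Blastocysts had 2.37%, 2.24% and 2.19% in the Alyref cross, 2.14%, 2.34% and 2.13% in the Gabpb1 cross, and 2.30%, 2.52% and 2.79% from WT parents. The highest share was in a WT blastocyst.

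The sums of complexes II and V did not overlap between the 10 morulae and the 9 blastocysts, and those of complexes III and IV did, on the CPM scale. All 4 overlapped when scaled to the ERCC spike-in RNA added to the samples. In the Alyref cross, complex II summed to 468 ± 25.4 CPM (SD, n = 2) in KO and 657 ± 180 (n = 3) in non-KO morulae. In the Gabpb1 cross it summed to 618 ± 56.4 CPM (n = 3) in morulae labelled KO and 860 ± 95.1 (n = 2) in non-KO morulae. Its sums in blastocysts were 1198 ± 68.4, 1188 ± 84.3 and 1273 ± 230 CPM (n = 3 each) in the Alyref cross, the Gabpb1 cross and the WT group. Complex II was the complex whose sum in each of the 3 morulae labelled Gabpb1 KO (557, 668 and 628 CPM) lay below both non-KO morulae (927 and 792 CPM), and this held with spike-in scaling. For complex III the order of those groups was the opposite on the CPM scale, with 3279, 3641 and 3111 CPM against 2965 and 2771 CPM, while the groups overlapped with spike-in scaling. Complex IV overlapped, and complex V had 7983, 8552 and 8213 CPM against 9611 and 8495 CPM, with 1 overlap. These sums carry no test, and the large genes of a complex weigh most in them. In whole embryos, fewer cells of a type and less RNA per cell cannot be told apart.

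**Figure D1:**
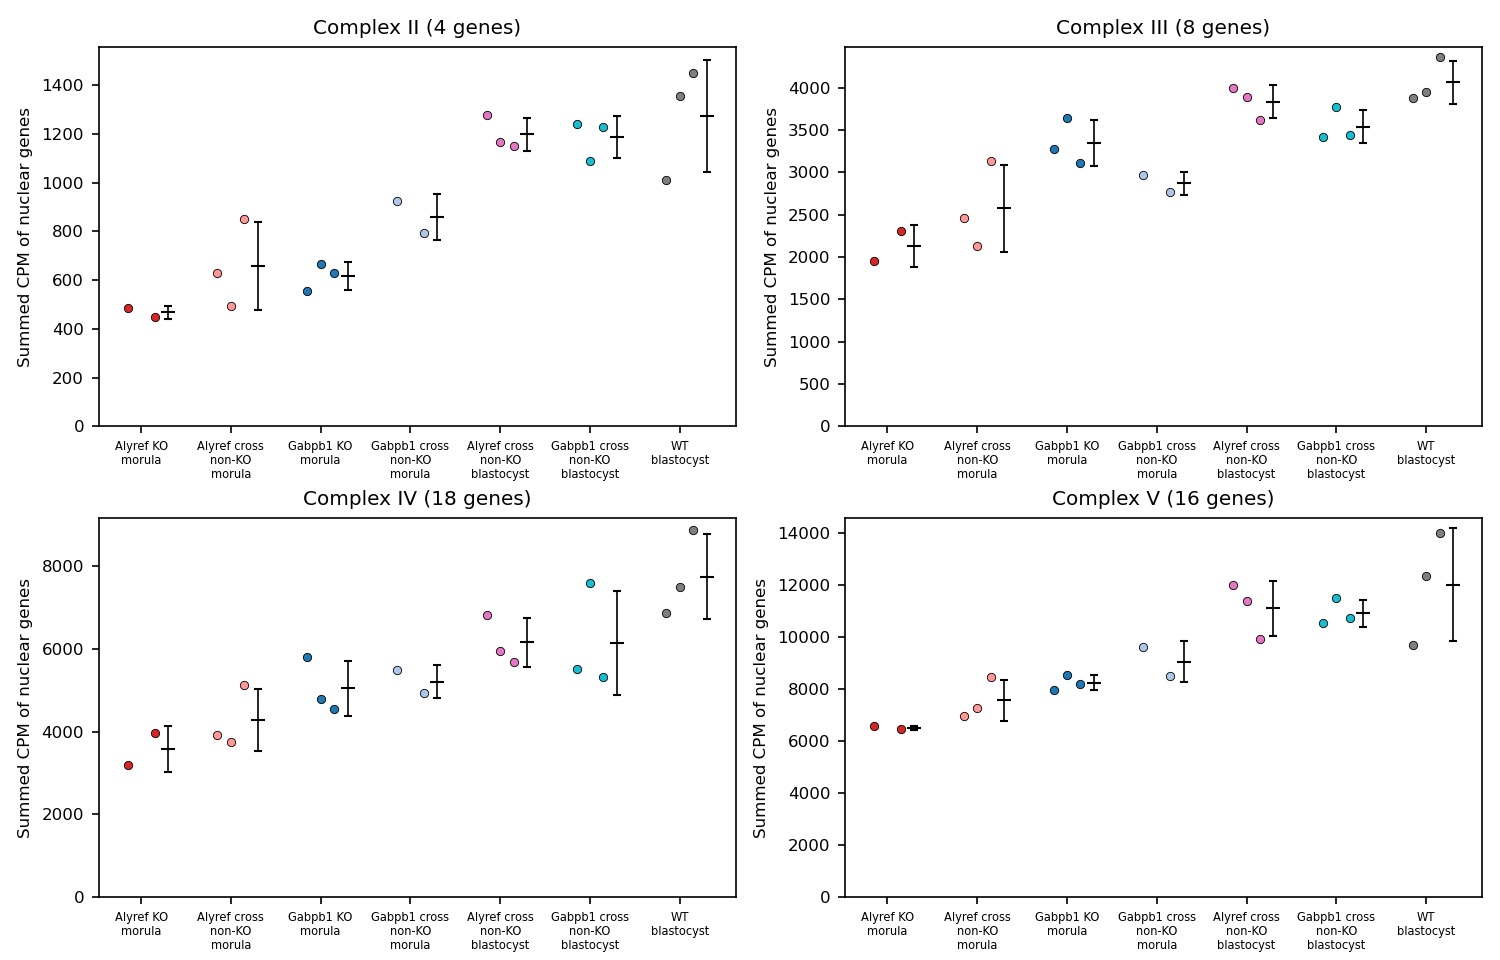
Summed CPM of the nuclear genes of complexes II, III, IV and V (vertical axes) in the 7 groups of embryos (horizontal axis), with 1 point per embryo and the mean ± SD beside the points. Complex II in morulae labelled Gabpb1 KO (557 to 668 CPM) lies below the non-KO morulae of that cross (792 to 927 CPM), and complex III lies above them, which it does not with spike-in scaling.

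In the Alyref cross, non-KO blastocysts were compared with non-KO morulae to show how these genes differ between the stages without loss of the targeted gene. Of the 44 tested members 20 rose and 0 fell at an adjusted p under 0.05, where 13.0% of all tested genes were called, 5.62% as higher and 7.43% as lower. At an unadjusted p under 0.05, 30 members were higher and 1 lower, beside 14.0% and 17.1% of all genes. The log2 fold change was positive for 40 members and negative for 4, with a median of 0.67 (0.24 with spike-in scaling) against -0.04 over all tested genes (-0.34 with spike-in scaling). For 33 members all 3 blastocysts lay above all 3 morulae, which held for 19.6% of tested genes, and for 1 member, Cox7a1, below. Called members numbered 2 of 4 in complex II, 4 of 8 in complex III, 5 of 16 in complex IV and 9 of 16 in complex V.

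Sdhd (ENSMUSG00000000171.5, chr9:50596357-50603812, minus strand, mm10), which with Sdhc anchors complex II in the membrane, showed the greatest rise of the called members. It was at 130, 61.7 and 217 CPM in the morulae and at 378, 326 and 345 CPM in the blastocysts, so every blastocyst was above every morula. Its difference on the log2 scale was 1.36 (SE 0.36, adjusted p 0.0249). Sdha (ENSMUSG00000021577.14, chr13:74322254-74350280, minus strand), the subunit that binds FAD and oxidises succinate, was at 131, 74.3 and 161 CPM in morulae and at 241, 296 and 215 CPM in blastocysts (log2 fold change 1.04, SE 0.29, adjusted p 0.0296). The other 2 genes of complex II had positive values that were not called, 0.51 (SE 0.19, adjusted p 0.076) for Sdhb and 0.88 (SE 0.29, adjusted p 0.055) for Sdhc.

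In complex III both core proteins rose, Uqcrc1 by 0.66 and Uqcrc2 by 0.72 on the log2 scale, as did the small subunits Uqcrq (0.81) and Uqcr11 (0.84). Uqcrc2 was at 255, 224 and 290 CPM in morulae and at 453, 458 and 353 CPM in blastocysts. Uqcrfs1, whose Rieske cluster passes the electron onward, had 0.66 (SE 0.22, adjusted p 0.060), and Uqcr10 0.39 (SE 0.18, adjusted p 0.15). The spread of 1 high morula entered most of these genes: the third morula had the highest value of its group for Uqcrc1, Uqcrc2, Uqcrq, Uqcr11, Uqcrfs1 and Uqcr10.

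In complex IV the called members were Cox5a (0.71), Cox5b (0.90), Cox6b1 (0.81), Cox7a2 (0.73) and Cox7c (0.69). Cox6b1 (ENSMUSG00000036751.7, chr7:30616861-30626151, minus strand), which lies on the intermembrane side of the enzyme near cytochrome c, was at 323, 277 and 450 CPM in morulae and at 700, 579 and 556 CPM in blastocysts (SE 0.19, adjusted p 0.018). Cox6c was the abundant member with the smallest value, 0.05 (SE 0.19), with an interval of ±2 SE from -0.33 to 0.43, and it was -0.28 with spike-in scaling. Cox7a1, the muscle and heart paralog of Cox7a2, had a negative value, as did Cox8c, Cox6a2 and Atp5s. Cox7a1 was at 24.1, 29.1 and 26.2 CPM in morulae and 8.29, 12 and 18 CPM in blastocysts, without overlap (log2 fold change -1.06, SE 0.47, adjusted p 0.143), and was not called.

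Complex V held the most called members. They were the alpha subunit Atp5a1 (0.80), the gamma and epsilon subunits of the central stalk Atp5c1 (0.67) and Atp5e (0.99), Atp5o of the peripheral stalk (0.81), the ring subunit genes Atp5g2 (0.78) and Atp5g3 (1.14), and the membrane subunits Atp5j2 (0.86), Atp5k (0.58) and Atp5l (0.69). Atp5g3 (ENSMUSG00000018770.9, chr2:73908447-73911326, minus strand) was at 441, 355 and 966 CPM in morulae and at 1429, 1225 and 1234 CPM in blastocysts (SE 0.30, adjusted p 0.027). Atp5b, the most abundant member by CPM, was at 2064, 2331 and 2084 CPM in morulae and 2994, 2879 and 2279 CPM in blastocysts, which overlap, and the log2 difference was 0.33 (SE 0.21, adjusted p 0.29). Atp5s, a factor that couples the enzyme's parts, had -0.37 (SE 0.32).

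The calls depended on single embryos and on the pooled spread. Without the first or second non-KO morula, or without the first or second blastocyst, 0 members were called, without the third blastocyst 7, and without the third morula 30, while the median stayed between 0.55 and 0.80. Spike-in scaling and a fit of the compared groups alone also gave 0 calls, and DESeq2 gave 27 and limma 23. The 20 called members had positive log2 fold changes under each of the 14 alternatives. Trophectoderm markers moved with the stage, at 503, 485 and 1783 CPM in these morulae and 6538, 5658 and 4004 CPM in the blastocysts. The summed pluripotency markers (Pou5f1, Nanog, Sox2 and Klf4) were at 523, 413 and 530 CPM in the morulae and 179, 163 and 199 CPM in the blastocysts. Nanog made up most of the difference, at 375, 284 and 361 CPM in morulae and 105, 69.5 and 89.9 CPM in blastocysts. Pou5f1 was also lower without overlap, while Sox2 and Klf4 overlapped between the stages. The part of either marker list in the result was not tested.

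Other genes of the respiratory chain were counted beside the members. Of the 36 nuclear complex I genes 15 rose and 0 fell in the same comparison (median 0.72). Of the 6 subunits of complexes III to V encoded in mitochondrial DNA, 0 were called in edgeR (2 at an unadjusted p under 0.05), with 3 positive values, 3 negative ones and a median of 0.07. Of 45 assembly factors and partners, 5 rose and 1 fell, a share near the 13.0% of all tested genes called, so the count is no result about this list. Each of these 6 calls was lost with spike-in scaling and with only the groups compared. Leaving out 1 embryo ended the calls of Coa7, Cox17, Cox20, Cycs and Ndufa4 in at least 1 case, and that of Sdhaf4 in none. The risers were Sdhaf4, which helps mature the flavoprotein of complex II (1.51, SE 0.29, adjusted p 0.00855), Cox20 (1.26), a chaperone of a mitochondrially encoded complex IV subunit, Cycs (1.17), which is cytochrome c itself, Ndufa4 (0.82), now placed with complex IV, and the copper chaperone Cox17 (0.65). Coa7, an assembly factor of complex IV, fell by 0.69.

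**Figure D2:**
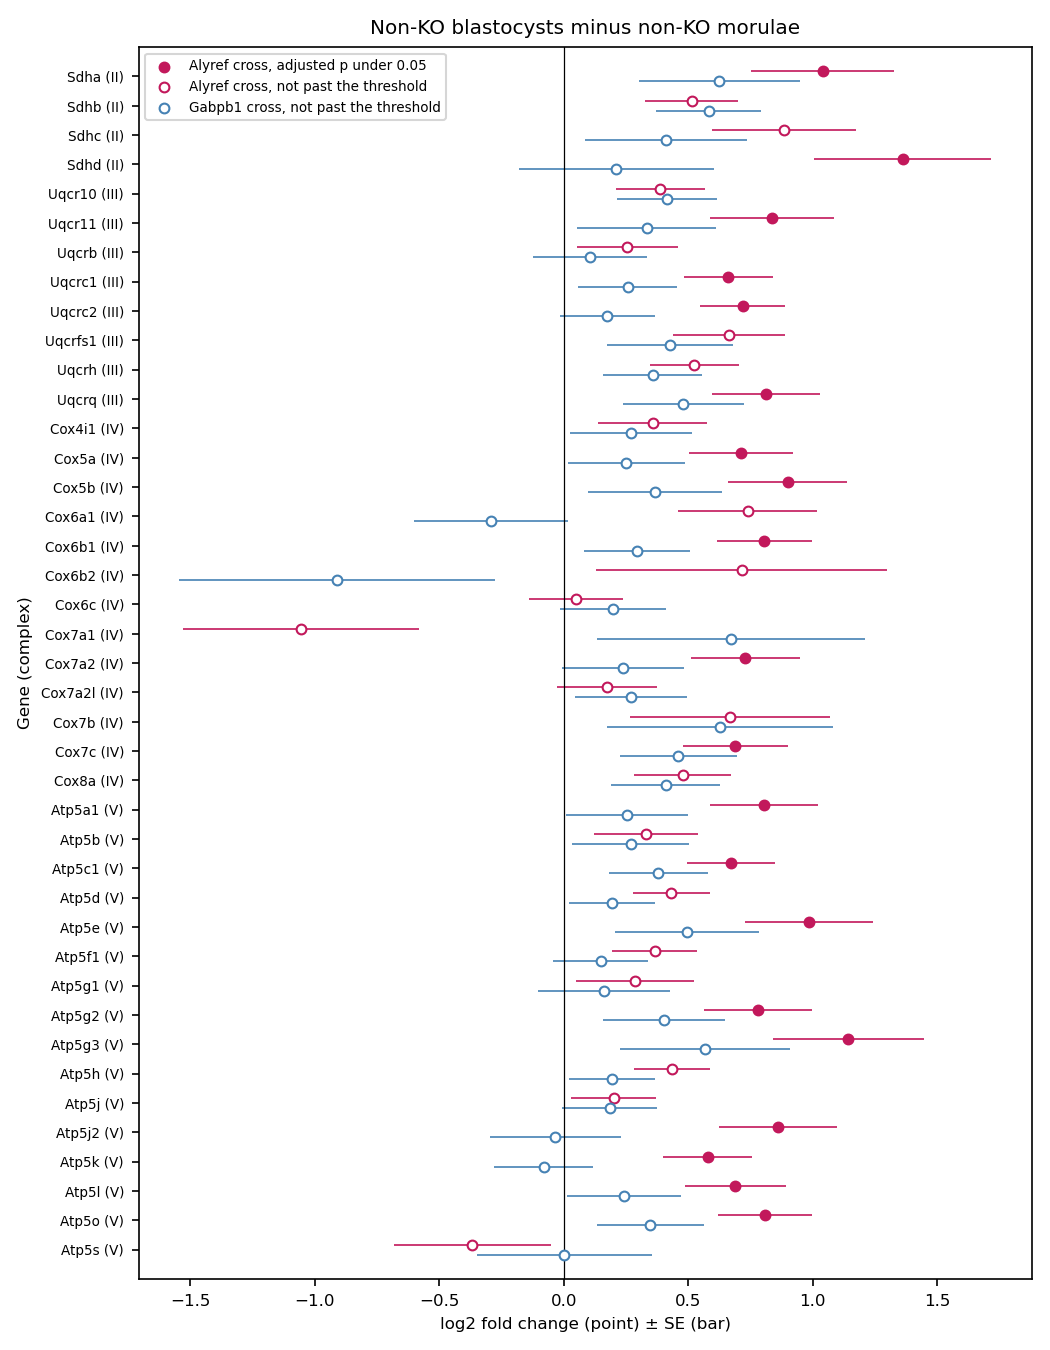
Log2 fold change ± SE of non-KO blastocysts against non-KO morulae (horizontal axis) for the 41 members with a mean of 10 CPM or more, grouped by complex (vertical axis), in the Alyref cross and the Gabpb1 cross. Filled points, all in the Alyref cross, mark the 20 members at an adjusted p under 0.05. Spike-in scaling turns the median in the Gabpb1 cross from 0.26 to -0.62.

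In the Gabpb1 cross the same stages were compared. None of the 44 members was called, and none of the 18410 tested genes was (0%). At an unadjusted p under 0.05 there were 1237 genes over all (6.72%, with 2.29% higher and 4.43% lower) and 2 members, Sdhb with a positive value and Cox8c, at 15 counts or fewer per embryo, with a negative one. DESeq2 called 51 genes and limma 11, with 0 members in either. The log2 fold change was positive for 37 members and negative for 7, with a median of 0.26 against 0.02 over all tested genes, and with spike-in scaling the median was -0.62 against -0.86. All blastocysts lay above both morulae for 21 members and below both for 2, where 11.5% and 11.6% of tested genes did so.

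Sdhb (ENSMUSG00000009863.14, chr4:140961203-140979193, plus strand) was at 350 and 299 CPM in the morulae and at 489, 494 and 477 CPM in the blastocysts, apart from each other, a difference of 0.58 on the log2 scale (SE 0.21, adjusted p 0.61). Sdha was at 179 and 156 CPM in morulae and at 246, 199 and 330 CPM in blastocysts (0.63, SE 0.32, adjusted p 0.77). Sdhd overlapped between the stages here, at 311 and 232 CPM in morulae and 384, 251 and 308 CPM in blastocysts (0.21, SE 0.39, with an interval of ±2 SE from -0.57 to 1.00). Cox7a1 and Cox7b stood at 0.67 (SE 0.54) and 0.63 (SE 0.45) and were negative, as was Sdha, with spike-in scaling. Among members with a mean of 10 CPM or more, the lowest values were those of Cox6b2 (-0.91, SE 0.63), Cox6a1 (-0.29, SE 0.31) and Atp5k (-0.08, SE 0.20).

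The difference between the stage effects of the 2 crosses was tested directly, in a contrast added after seeing the data. None of the members was called, against 1 of all tested genes (0.00543%), while 2534 genes and 6 members had an unadjusted p under 0.05, and DESeq2 called 342 genes with no member and limma 0. The members' values were lower in the Gabpb1 cross in 38 of 44 cases (median -0.39 against 0.05 over all genes). Sdhd had -1.15 (SE 0.52, adjusted p 0.35), Cox6a1 -1.03 (SE 0.42, adjusted p 0.31), Cox6b2 -1.62 (SE 0.86, adjusted p 0.42) and Cox7a1 1.73 (SE 0.72, adjusted p 0.33). Without the third Alyref cross non-KO morula, Atp5j2 was called (-1.22, adjusted p 0.0429).

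Morulae labelled Gabpb1 KO were compared with the non-KO morulae of their cross to ask how the members stood in embryos called as lacking a subunit of GABP. No member was called, against 1.65% of tested genes (303), while 3 members were higher and 3 lower at an unadjusted p under 0.05, shares that over all genes were 8.64% and 10.2%. The 44 values were split evenly, 22 positive and 22 negative, with a median of -0.01 against 0.06 over all genes (-0.48 against -0.40 with spike-in scaling). Groups were apart for 4 members with the KO label higher and 8 with it lower, beside 15.8% and 16.4% of tested genes.

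Sdhd had the lowest value of the members with a mean of 10 CPM or more. It was at 114, 68.2 and 98.4 CPM in the morulae labelled Gabpb1 KO and at 311 and 232 CPM in the non-KO morulae, so the groups did not overlap. On the log2 scale the difference came to -1.53 (SE 0.39, adjusted p 0.0533), just outside the threshold. It was called with DESeq2's size factors in edgeR (adjusted p 0.0499963), without the filter on low values (0.0345), with a stricter filter (0.0409), in the DESeq2 test (0.00497) and without the first morula labelled KO (-1.70, adjusted p 0.0416). Limma, spike-in scaling and the fit of the compared groups alone did not call it. Nor did the fits without morula 2 or 3 labelled KO or without either non-KO morula. Morulae of the Alyref cross also had low Sdhd (75.8 and 71.6 CPM in KO embryos, 61.7 to 217 CPM in non-KO embryos), and the non-KO morulae of the Gabpb1 cross were the high group among morulae.

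The other genes of complex II did not share this value. Sdha was at 126, 83.1 and 138 CPM in morulae labelled Gabpb1 KO and 179 and 156 CPM in non-KO morulae (-0.53, SE 0.31, adjusted p 0.38), also without overlap. Sdhc was at 77.3, 103 and 56.4 CPM against 86.7 and 106 CPM (-0.29, SE 0.32), and Sdhb at 239, 414 and 335 CPM against 350 and 299 CPM (0.02, SE 0.21, with an interval of ±2 SE from -0.40 to 0.43). Sdhb and Sdhd both hold the ETS letters in the promoter sequences given earlier.

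Cox6b1 had the next smallest adjusted p. Its level was 298, 272 and 253 CPM in morulae labelled Gabpb1 KO and 465 and 452 CPM in non-KO morulae, with no overlap and a value of -0.74 (SE 0.21, adjusted p 0.0816), and DESeq2 called it (-0.76, adjusted p 0.0144). In Alyref KO morulae the value of Cox6b1 was 0.06 (SE 0.21). The alpha subunit Atp5a1 of complex V was at 810, 725 and 875 CPM against 1365 and 1146 CPM (-0.64, SE 0.24, adjusted p 0.17). Cox6b2, the testis paralog of Cox6b1, had -1.02 (SE 0.63, adjusted p 0.40), and without the second non-KO morula, which had 75.0 CPM of it against 20.4 in the first, the value was 0.21.

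On the positive side stood 2 small subunits of complex III and a ring subunit gene of complex V. Uqcr10 was at 620, 748 and 560 CPM in morulae labelled Gabpb1 KO and at 431 and 410 CPM in non-KO morulae (0.61, SE 0.20, adjusted p 0.13). Uqcrb, which helps form the ubiquinone site, was at 692, 786 and 435 CPM against 403 and 398 CPM (0.67, SE 0.23, adjusted p 0.14). Atp5g1 was at 496, 978 and 544 CPM against 407 and 454 CPM (0.64, SE 0.27, adjusted p 0.21), and with spike-in scaling its value was -0.04. Cox7a1 had 0.91 (SE 0.54, adjusted p 0.38). None of these groups overlapped, and none of the differences was called.

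Members with and without the ETS letters had near values in this comparison. The median was -0.06 over the 12 tested members with CCGGAAG (5 positive, 7 negative) and 0.02 over the 23 tested members whose window lacks it (12 positive, 11 negative). In the stage comparison of the Alyref cross the medians were 0.63 (6 of 12 called) and 0.67 (11 of 23 called).

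Of the 45 assembly and partner genes, 1 was called in morulae labelled Gabpb1 KO, beside 1.65% of all tested genes. Sco1, a copper chaperone of complex IV, fell by 1.24 on the log2 scale (SE 0.27, adjusted p 0.0392), from a mean of 27.2 CPM to 11.5 CPM. That call was lost in 7 of 13 alternatives, among them spike-in scaling (adjusted p 0.39), only the groups compared (0.33), the replicate block (0.058) and the omission of either non-KO morula (0.18 and 0.12) or of morula 2 or 3 labelled KO (0.089 and 0.092), with log2 values from -1.64 to -1.02. Complex I had 20 positive and 16 negative values of 36, and 0 called (8 at an unadjusted p under 0.05). The 6 mitochondrially encoded subunits had a median of -0.17, with 0 called or at an unadjusted p under 0.05. Summed trophectoderm markers differed between these groups, at 2393, 243 and 883 CPM in the morulae labelled KO and 3906 and 2419 CPM in the non-KO morulae. By gene, Krt8 and Eomes were lower in the morulae labelled KO without overlap, while Krt18, Gata3 and Cdx2 overlapped. Gata3 was at 243, 20.8 and 87.2 CPM against 211 and 89.8 CPM. Gabpa stood 1.14 higher in the morulae labelled KO on the log2 scale (SE 0.29, adjusted p 0.0518). Pluripotency markers summed to 421, 293 and 354 CPM in the morulae labelled KO and 278 and 174 CPM in the non-KO morulae, without overlap. By gene, Pou5f1 and Klf4 were higher without overlap, while Nanog and Sox2 overlapped. Nanog, the largest part of the sum in most of these embryos, was at 221, 153 and 205 CPM against 171 and 89.1 CPM. Primitive endoderm markers (Gata6, Sox17, Gata4 and Pdgfra) summed to 208, 160 and 150 CPM and 120 and 149 CPM in the same order. Of these only Gata6 was higher in the morulae labelled KO, at 187, 154 and 136 CPM against 81.2 and 105 CPM. Sox17, Gata4 and Pdgfra, all at lower levels, were each lower in the morulae labelled KO, without overlap. The part of these markers or of Gabpa in the results was not tested.

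**Figure D3:**
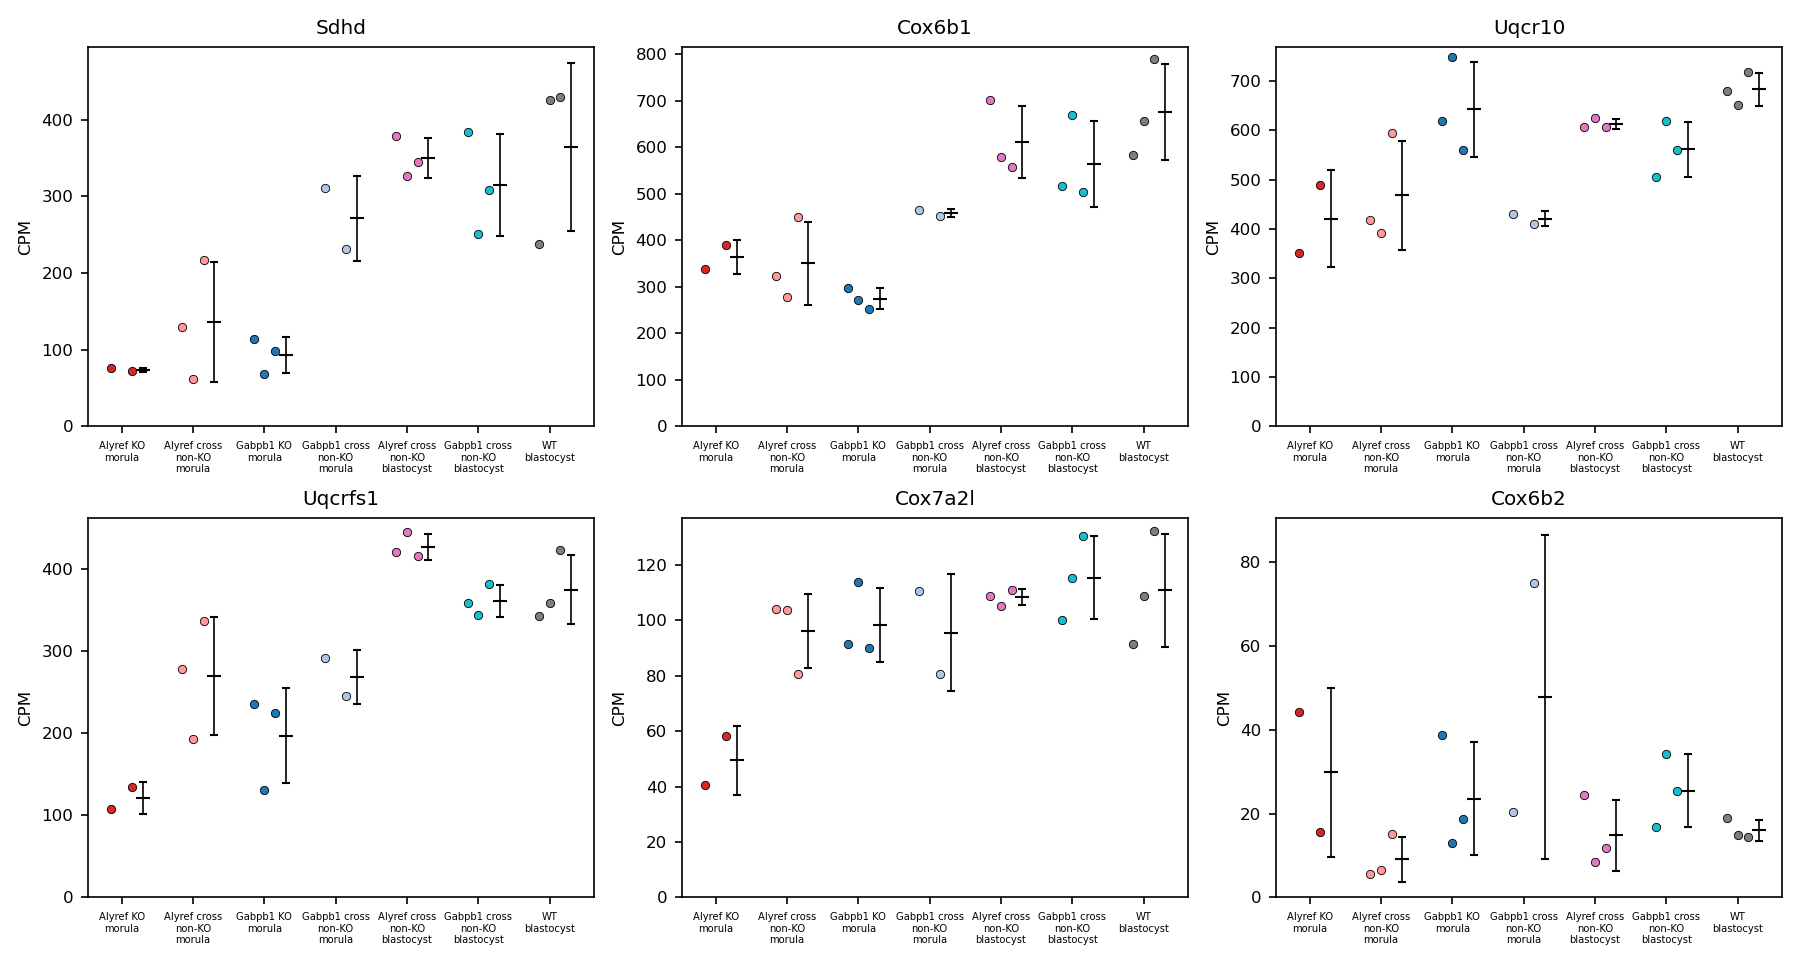
CPM of Sdhd, Cox6b1, Uqcr10, Uqcrfs1, Cox7a2l and Cox6b2 (vertical axes) in each of the 19 embryos, by group (horizontal axis), with the mean ± SD beside the points. Sdhd and Cox6b1 in the 3 morulae labelled Gabpb1 KO (68.2 to 114 and 253 to 298 CPM) lie below both non-KO morulae of that cross, and Uqcrfs1 and Cox7a2l are lowest in the Alyref KO morulae, apart from Uqcrfs1 in 1 morula labelled Gabpb1 KO at 131 CPM.

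Alyref KO morulae were compared with the non-KO morulae of their cross. No member was called, against 0.228% of all tested genes (42, with 0.0923% higher). At an unadjusted p under 0.05, 2 members were higher and 10 lower, where the shares over all tested genes were 5.00% and 7.09%. Values were positive for 12 members and negative for 32, with a median of -0.29 against -0.04 over all genes (-0.36 against -0.06 with spike-in scaling). The groups were apart for 3 members with the KO higher and 11 with it lower, beside 12.5% and 12.4% of tested genes (24.9% in either direction). Without the third non-KO morula the median was -0.13. By complex, it was -0.54 in complex II, -0.27 in complex III, -0.25 in complex IV and -0.23 in complex V.

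Uqcrfs1 (ENSMUSG00000038462.3, chr13:30540308-30545362, minus strand) was at 108 and 135 CPM in the Alyref KO morulae and at 278, 194 and 337 CPM in the non-KO morulae. The groups did not overlap, with a log2 difference of -1.15 (SE 0.26, adjusted p 0.0877). It was called in DESeq2 (-1.14, adjusted p 0.00215) and without the second non-KO morula (-1.35, adjusted p 0.0423). Cox7a2l (ENSMUSG00000024248.13, chr17:83501919-83514333, minus strand), a relative of Cox7a2 that joins complexes III and IV into supercomplexes, was at 40.7 and 58.1 CPM in KO morulae and at 104, 104 and 80.5 CPM in non-KO morulae (-0.96, SE 0.23, adjusted p 0.101), and DESeq2 called it (-0.95, adjusted p 0.00683). These KO embryos had the lowest Cox7a2l of all 19 embryos. In morulae labelled Gabpb1 KO the value of Cox7a2l was 0.04 (SE 0.22), with an interval of ±2 SE from -0.41 to 0.49.

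Further members at an unadjusted p under 0.05 were Cox6c (441 and 560 CPM against 769, 782 and 828 CPM, log2 fold change -0.66, SE 0.22, adjusted p 0.21), Cox7a1, Cox7b, Cox8a, Sdhb, Sdhd, Atp5l and Atp5s on the lower side. Sdhb was at 240 and 241 CPM against 296, 320 and 380 CPM (-0.47, SE 0.21, adjusted p 0.39). Sdhd was at 75.8 and 71.6 CPM against 130, 61.7 and 217 CPM, which overlap (-0.88, SE 0.40, adjusted p 0.39). Cox7a1 had -1.23 (SE 0.55) and Cox7b -1.0 (SE 0.46), and both KO embryos differed widely in Cox7a1, at 3.43 and 18.8 CPM. Sdha, at 99.8 and 60.5 CPM against 131, 74.3 and 161 CPM, had -0.61 (SE 0.32).

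Few abundant members were higher in Alyref KO morulae. Cox6b2 (ENSMUSG00000051811.14, chr7:4751792-4753094, minus strand) was at 44.1 and 15.6 CPM in the KO morulae and at 5.49, 6.58 and 15.2 CPM in the non-KO morulae, with the groups just apart (1.71, SE 0.64, adjusted p 0.28). Cox5a had 0.30 (SE 0.23) and Sdhc 0.13 (SE 0.32), and Sdhc was -0.09 with spike-in scaling and -0.17 without the second non-KO morula. The muscle paralog Cox6a2 had 8 and 29 counts in the KO morulae and 5, 0 and 0 counts in the non-KO morulae, and limma on log2(FPKM + 1) called it (1.49, adjusted p 0.0452). Only both Alyref KO morulae and the first morula labelled Gabpb1 KO reached 1 FPKM of Cox6a2. The gene thus passed the filter through the group where it was high. Neither the call nor its place among the members counted as higher in KO morulae carries weight. At this level it adds at most 0.45% to the FPKM of the Cox6a pair.

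Of the partner genes, Atpaf1, a chaperone that helps assemble the catalytic head of complex V, fell by 1.55 on the log2 scale (SE 0.30, adjusted p 0.0490), from a mean of 45.5 CPM to 15.5 CPM. It was 1 of 45, beside 0.228% of all tested genes. The call was lost in 7 of 13 alternatives: with spike-in scaling (adjusted p 1), only the groups compared (0.56), the replicate block (0.083), no filter on low values (0.075), or without the first (0.18) or second KO morula (0.37) or the first non-KO morula (0.12), with log2 values from -1.75 to -1.28. Its client Atp5b was at 1829 and 1302 CPM in KO morulae and 2064, 2331 and 2084 CPM in non-KO morulae, apart from each other (-0.46, SE 0.24, adjusted p 0.46). All 6 mitochondrially encoded subunits had negative values (median -0.17) with 0 called or at an unadjusted p under 0.05. Complex I had 15 positive and 21 negative values. Trophectoderm markers were at 1311 and 519 CPM in the KO morulae, within the range of 485 to 1783 CPM in the non-KO morulae. Pluripotency markers summed to 625 and 587 CPM in the KO morulae and 523, 413 and 530 CPM in the non-KO morulae, without overlap. Nanog made up most of that sum, at 511 and 478 CPM against 375, 284 and 361 CPM. Pou5f1 went the other way, at 80.1 and 57.5 CPM against 135, 95.1 and 113 CPM, also without overlap. Sox2 and Klf4 overlapped between the groups. The part of these markers in the results was not tested.

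**Figure D4:**
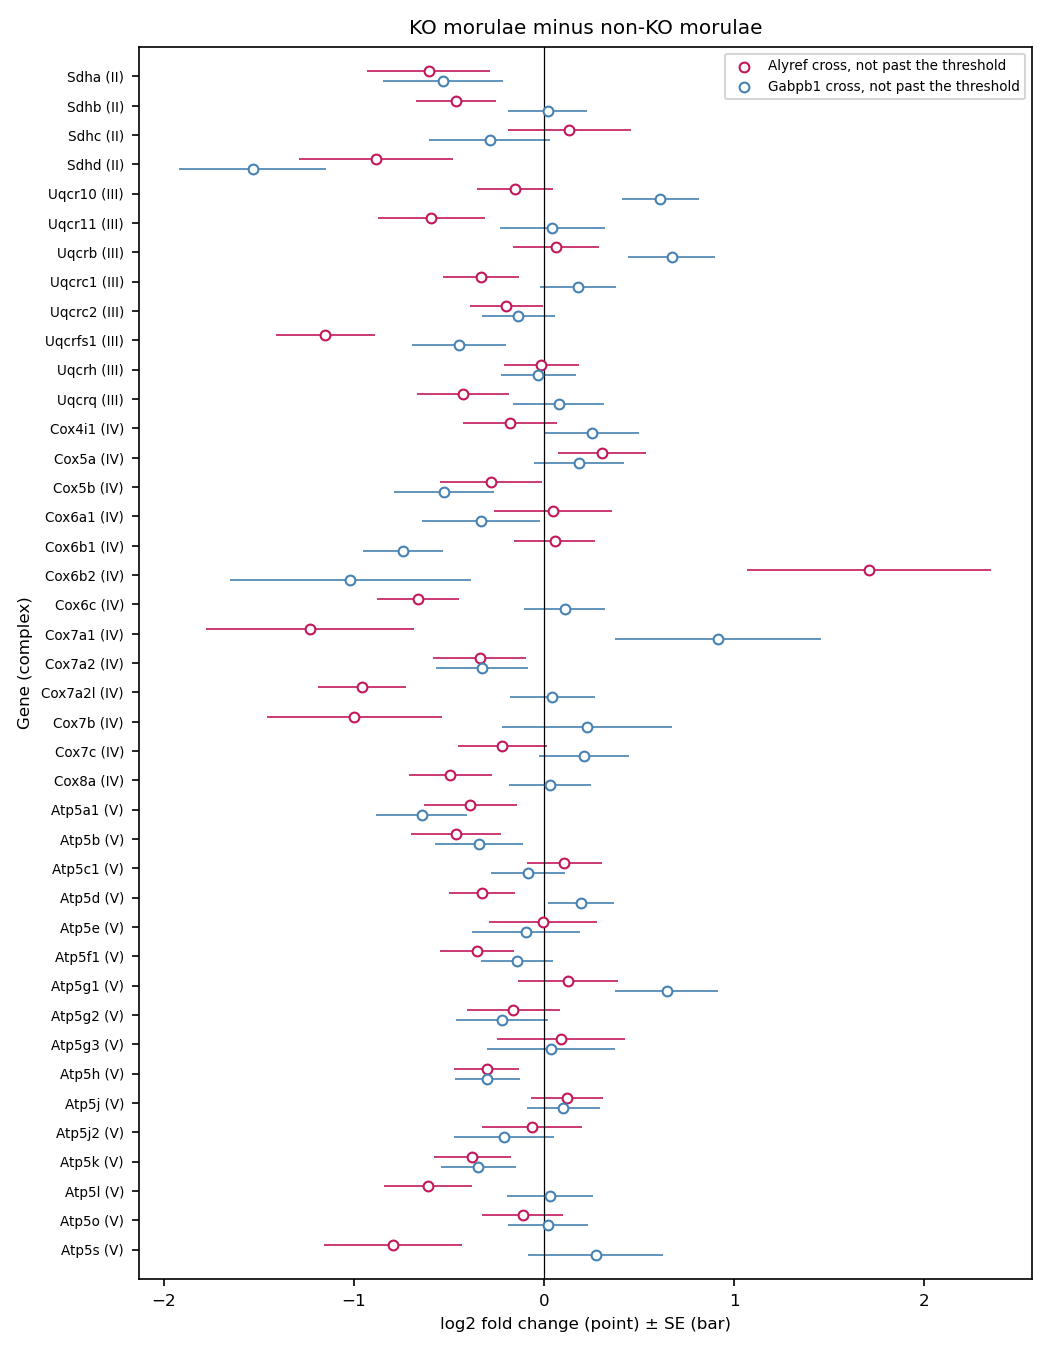
Log2 fold change ± SE of morulae labelled KO against non-KO morulae of the same cross (horizontal axis) for the 41 members with a mean of 10 CPM or more, grouped by complex (vertical axis). No point passed an adjusted p of 0.05, and the values of the Alyref cross lie below 0 for 31 of the 41 members.

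The difference between the KO effects, Gabpb1 label minus Alyref, was tested as an interaction. None of the members was called, against 0.907% of all tested genes, and 4 members were higher and 2 lower at an unadjusted p under 0.05, where 8.82% and 8.04% of all genes were (16.9% in either direction). Positive and negative values numbered 26 and 18, with a median of 0.07 against 0.12 over all genes (-0.22 against -0.33 with spike-in scaling). Among members with a mean of 10 CPM or more, the lowest were Cox6b2 (-2.73, SE 0.90, adjusted p 0.15), which DESeq2 called (-2.78, adjusted p 0.0412), Cox6b1 (-0.80, SE 0.30, adjusted p 0.20) and Sdhd (-0.65, SE 0.55, adjusted p 0.59). The highest were Cox7a1 (2.14, SE 0.77, adjusted p 0.18), Cox7b (1.22, SE 0.64) and Atp5s (1.07, SE 0.51). For Uqcrfs1 the difference was 0.70 (SE 0.36) and for Cox7a2l 1.00 (SE 0.32, adjusted p 0.14). The low Sdhd in morulae labelled Gabpb1 KO and the low Uqcrfs1 and Cox7a2l in Alyref KO morulae are thus not shown to differ between the 2 deletions.

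Non-KO morulae of the 2 crosses served as controls of the KO comparisons and were compared with each other. No member was called, against 1.85% of all tested genes (341, with 1.18% higher in the Gabpb1 cross), while 7 members were higher and 0 lower in the Gabpb1 cross at an unadjusted p under 0.05 (11.2% and 11.2% of all genes). Values were positive for 36 members, with a median of 0.31 against -0.03 over all genes (0.70 against 0.39 with spike-in scaling). Cox6b2 had the largest value, with 20.4 and 75.0 CPM in the Gabpb1 cross and 5.49, 6.58 and 15.2 CPM in the Alyref cross (2.39, SE 0.65, adjusted p 0.0633). Cox6a1, at 705 and 862 CPM against 324, 290 and 558 CPM, had 1.01 (SE 0.31, adjusted p 0.086), and Sdhd 1.00 (SE 0.39, adjusted p 0.15). Cox7a1 had -1.08 (SE 0.54), Atp5s -0.36 (SE 0.36) and Uqcr10 -0.15 (SE 0.20). Without the third Alyref cross non-KO morula, 7 members were called as higher in the Gabpb1 cross: Cox5b, Atp5g3, Cox6a1, Atp5j2, Cox6b2, Sdhd and Uqcr11. The partner gene Sdhaf4 was called here with all embryos, 1.53 higher (SE 0.32, adjusted p 0.0340). It was 1 of 45 partner genes, and the call was lost in 6 of 13 alternatives: with spike-in scaling (adjusted p 0.40), with only the groups compared (0.38), without the first or second Alyref cross morula (0.099 and 0.10) and without either Gabpb1 cross morula (0.062 and 0.23). Summed trophectoderm markers again differed, at 3906 and 2419 CPM against 503, 485 and 1783 CPM. So did the sums of pluripotency markers, at 278 and 174 CPM against 523, 413 and 530 CPM. By gene, Krt8 and Krt18 were higher and Nanog and Pou5f1 lower in the Gabpb1 cross without overlap. Cdx2, Gata3, Eomes, Sox2 and Klf4 overlapped between the crosses. The part of these markers in these values was not tested.

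Blastocysts of the heterozygous crosses were set against WT blastocysts. No gene of the 18410 was called in either comparison (0% in each), and 541 and 1123 genes had an unadjusted p under 0.05. DESeq2 called 15 genes for the Alyref cross and 39 for the Gabpb1 cross, and limma 5 and 4, with 0 members among them. At an unadjusted p under 0.05, 4 members were lower in the Alyref cross and 6 in the Gabpb1 cross, and 0 were higher in either. Negative values were found for 34 of 44 members in the Alyref cross (median -0.16 against -0.0064 over all genes) and for 36 of 44 in the Gabpb1 cross (median -0.27 against -0.0013). With spike-in scaling the members' medians were 0.02 against 0.15 over all genes and -0.21 against 0.0060, so they stayed below that of all genes. The 2 comparisons share the WT embryos. Groups were apart with WT higher for 11 members in each, beside 6.13% and 6.30% of tested genes, and with WT lower for none. Primitive endoderm markers summed to 254, 218 and 268 CPM in WT blastocysts. Their sums were 147, 124 and 171 CPM in the Alyref cross and 212, 138 and 161 CPM in the Gabpb1 cross, below WT in both. By gene, Gata4 and Pdgfra were apart from WT in the Alyref cross, while Gata6 and Sox17 overlapped. In the Gabpb1 cross each of these genes overlapped with WT. Gata6, the most abundant in most embryos, was at 165, 92.0 and 89.2 CPM in WT blastocysts. The part of these markers in these values was not tested.

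Among single genes, Cox6c was at 945, 802 and 717 CPM in Alyref cross blastocysts, 848, 1121 and 802 CPM in the Gabpb1 cross and 1037, 1188 and 1404 CPM in WT blastocysts, so only the Alyref cross lay apart from WT (-0.56, SE 0.19). Cox7a2 was at 496, 447 and 411 CPM, 397, 504 and 415 CPM, and 551, 616 and 723 CPM in the same order, and both crosses lay below WT (-0.48, SE 0.22, and -0.52, SE 0.22). Cox5a was lower by value in the Gabpb1 cross, at 584, 714 and 449 CPM against 740, 786 and 1074 CPM (-0.57, SE 0.21, adjusted p 0.79), followed by Uqcr11 (-0.49, SE 0.25). Cox7b had -0.49 (SE 0.40) in the Alyref cross. The highest values among members with a mean of 10 CPM or more were 0.20 (SE 0.17) for Uqcrc2, 0.19 (SE 0.22) for Uqcrfs1 and 0.15 (SE 0.32) for Atp5s in the Alyref cross, and 0.70 (SE 0.47) for Cox7a1, 0.67 (SE 0.58) for Cox6b2 and 0.16 (SE 0.32) for Atp5s in the Gabpb1 cross. For Sdhd the values were -0.06 (SE 0.35) and -0.21 (SE 0.35), and WT embryos spread from 238 to 430 CPM.

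Complex IV is the complex with most paralogs, and their shares were followed as a percent of the FPKM of each family. In the Cox4i, Cox6a and Cox8 families the ubiquitous forms made up nearly all of the mRNA. Cox4i1 made up 99.8% to 100% of the Cox4i pair, Cox6a1 99.5% to 100% of the Cox6a pair and Cox8a 99.8% to 100% of the Cox8 genes. Of the forms induced by hypoxia or used in muscle and testis, Cox4i2, Cox6a2, Cox8b and Cox8c were near 0. Cox4i2, known from lung and hypoxic cells, had at most 10 counts in an embryo and 0 counts in 7 of them. Cox8b, of heart and muscle, had a total of 1 count over the 19 embryos together, and Cox8c, of testis, at most 15 counts in an embryo. Neither Cox4i2 nor Cox8b was tested.

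Other paralogs were present at a measurable share. Cox6b2 made up 0.92% to 9.59% of the Cox6b pair, with a mean of 3.14% ± 2.49 (SD, n = 19). Cox7a1 made up 2.73% to 18.3% of the sum of Cox7a1 and Cox7a2, with 15.1% ± 3.33 (SD, n = 3) in the Alyref cross non-KO morulae, 12% ± 2.51 (n = 3) in morulae labelled Gabpb1 KO, 7.40% (n = 2) in Alyref KO morulae and 5.69% (n = 2) in Gabpb1 cross non-KO morulae. In blastocysts it was 4.85%, 7.40% and 3.24% in the Alyref cross, the Gabpb1 cross and the WT group. Cox7b2, a testis gene, reached 9.71% ± 0.89 (SD, n = 2) of the Cox7b pair in Alyref KO morulae, where it had 35 and 108 counts, and ran from 0% to 10.3% over all embryos. Cox7b2 was 4.62 and 7.20 CPM in those KO embryos and 4.02, 2.36 and 0.065 CPM in the non-KO morulae (log2 fold change 1.46, SE 1.47). The high share came with low Cox7b, at 104 and 140 CPM. Of the 3 genes for the ring subunit of complex V, which encode the same mature protein, Atp5g3 gave 72.4%, Atp5g1 17.8% and Atp5g2 9.81% of their FPKM on average over the 19 embryos. Atp5g1 reached 36.3% in 1 embryo.

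**Figure D5:**
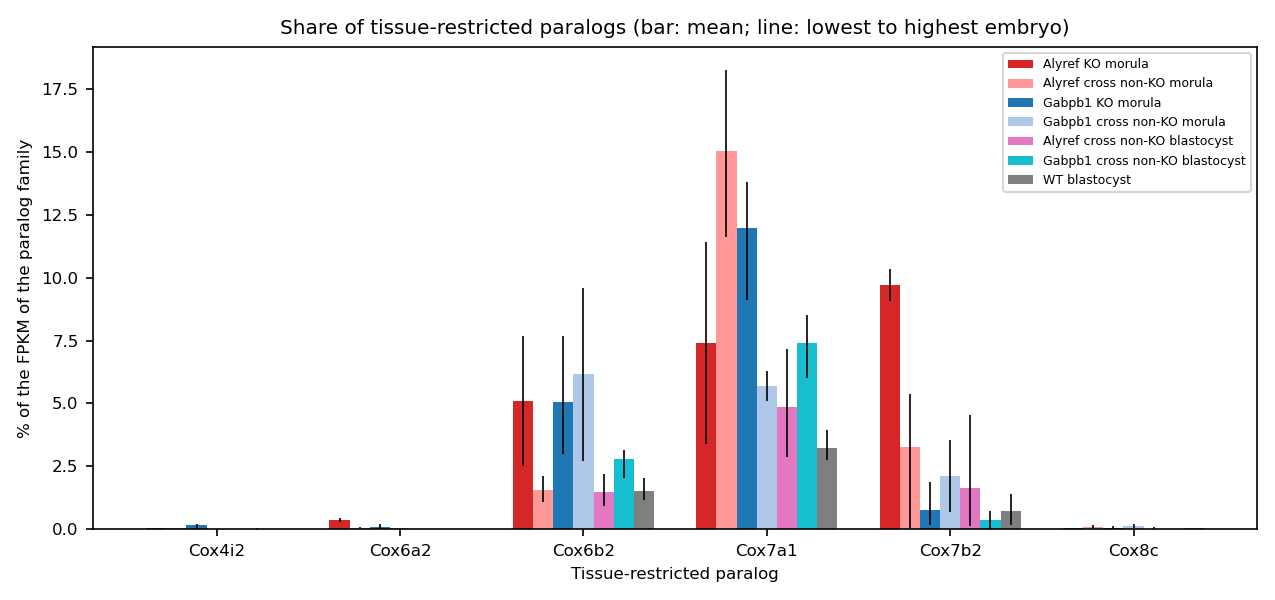
Share of 6 tissue-restricted paralogs of complex IV in the FPKM of their family (vertical axis, %), by paralog (horizontal axis) and group of embryos. Bars are group means and lines run from the lowest to the highest embryo. Cox6b2, Cox7a1 and Cox7b2 reach 9.59%, 18.3% and 10.3%, while Cox4i2, Cox6a2 and Cox8c stay under 0.46%.

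Some members varied more between embryos than others. Among members with a mean of 10 CPM or more, the coefficient of variation over the 19 embryos was highest for Cox6b2 (74.1%) and Sdhd (55.2%) and lowest for Atp5f1 (19.8%), a subunit of the peripheral stalk of complex V. This ordering mixes stage, cross and embryo. Counts of some members could hold reads of other genes, since the strand setting is not given in the sources used here: 12 members share exon bases with another gene, nearly all on the opposite strand, at most 19.75% of Uqcrc2 (with Pdzd9), 12.8% of Cox5a and 12.68% of Atp5j (with Gabpa). Atp5l has expressed processed copies, Atp5l2-ps at 61.7, Atp5l-ps1 at 39.2 and Atp5l-ps2 at 15.8 CPM on average against 126 CPM for Atp5l, so its level is uncertain.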

How the data were processed

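Libraries were made from single embryos with 16 PCR cycles and read as pairs of 50 and 25 bases. The deposited table of counts per gene was made by the authors from reads on mm10; per the submitters' processing notes STAR, Trim Galore, Trimmomatic, cutadapt and featureCounts were used, with versions and strand setting not given in the sources used here. The table is announced as FPKM but holds whole-number counts, and FPKM were computed here from the counts, the deposited merged exon length and each embryo's gene total.

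The 92 spike-in rows were kept out of gene totals. Genes with FPKM of at least 1 in at least 2 embryos were tested (18410). All 19 embryos entered 1 fit of 7 group means in edgeR 4.0.16 (quasi-likelihood, TMM, R 4.3.3), with Benjamini-Hochberg adjustment over all tested genes and a threshold of 0.05. SE was taken as |log2 fold change| over the root of the F statistic, and intervals are ±2 SE. The code of the fit was run on counts simulated from its own estimates of spread. That run checks the code and not how well the model suits these embryos.

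Alternatives were other scalings (RLE, spike-ins), other filters (none, FPKM of 5), DESeq2 1.42.0, limma 3.58.1 on log2(FPKM + 1), only the compared groups, a replicate block, and each embryo left out. Genes were named by a rule: all of complex II, the paralog groups, core subunits, called members, and the 3 highest and 3 lowest values per comparison among members with a mean of at least 10 CPM. Members, lists and tests were chosen with earlier results of these data known. No pair of embryos in a group agreed within counting noise.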

Additional observations from a re-analysis of the deposited data

How the results depend on the processing

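Groups of 2 or 3 embryos limit the precision of these comparisons. Of the 44 tested members, edgeR called 20 in the stage comparison of the Alyref cross and 0 in each of the others. With spike-in scaling, or with only the groups compared, that count was 0, and it ran from 0 to 30 when 1 embryo was left out. For Alyref KO morulae DESeq2 called 2 members and limma 1, and leaving out 1 embryo gave 0 to 1. The limma call was Cox6a2, which passed the filter only through morulae with a KO label. For morulae labelled Gabpb1 KO the count was 1 with RLE scaling, 1 without a filter, 1 with the stricter filter, 2 in DESeq2 and 0 to 1 with 1 embryo left out. For the difference of the KO effects DESeq2 called 1. For non-KO morulae between crosses the count was 1 without a filter, 1 with the stricter filter, 3 in DESeq2 and 0 to 7 with 1 embryo left out, and for the difference of the stage effects it was 0 to 1 with 1 embryo left out. Over all tested genes the count moved too: from 42 for Alyref KO morulae to 490 in DESeq2, 174 in limma and 0 with spike-in scaling, from 303 for morulae labelled Gabpb1 KO to 1265, 511 and 26, from 341 between non-KO morulae to 1694, 658 and 2, and from 2402 for the stage in the Alyref cross to 3739 in DESeq2 and 352 with spike-in scaling. The cause of these changes was not tested, except that fewer embryos enter where some are left out.

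With spike-in scaling the median over members was 0.24 for the stage in the Alyref cross, -0.62 in the Gabpb1 cross, -0.86 for the difference of those effects, -0.48 for morulae labelled Gabpb1 KO, -0.22 for the difference of the KO effects, 0.70 for non-KO morulae between crosses and 0.017 for Alyref cross against WT blastocysts. With 1 embryo left out these medians ranged from 0.55 to 0.80, 0.18 to 0.39, -0.57 to -0.27, -0.12 to 0.058, -0.031 to 0.24, 0.23 to 0.43 and -0.25 to -0.057 in the same order, from -0.36 to -0.13 for Alyref KO morulae and from -0.39 to -0.13 for Gabpb1 cross against WT blastocysts.

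Spike-in scaling turned the sign of Sdhc in Alyref KO morulae (-0.087), Atp5g1 in morulae labelled Gabpb1 KO (-0.038), Cox6c in the Alyref cross stage comparison (-0.28), Sdha (-0.30), Cox7b (-0.31) and Cox7a1 (-0.18) in the Gabpb1 cross stage comparison, Atp5s (0.13) and Uqcr10 (0.19) between non-KO morulae, and Cox6c (-0.41) and Atp5s (-0.30) in the difference of the stage effects. Leaving out 1 embryo did so for Sdhc in Alyref KO morulae (-0.17 to 0.45), Cox6b2 in morulae labelled Gabpb1 KO (-1.67 to 0.21), Atp5s (-0.63 to 0.0027) and Cox6c (-0.061 to 0.14) in the Alyref cross stage comparison, Cox6b2 (-1.56 to 0.32) and Atp5k (-0.27 to 0.14) in that of the Gabpb1 cross, Uqcr10 between non-KO morulae (-0.26 to 0.057), and Atp5s in Alyref cross (-0.086 to 0.54) and Gabpb1 cross (-0.077 to 0.55) against WT blastocysts. It also did so for Cox6c (-0.045 to 0.26) and Atp5s (-0.0065 to 0.63) in the difference of the stage effects. The cause was not tested.

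Replicate numbers are shared between groups but did not pair the embryos, with correlations of same-numbered deviations from -0.16 to 0.17. With the replicate block 15 members were called in the Alyref cross stage comparison and 1, Sdhd, in morulae labelled Gabpb1 KO (-1.65, adjusted p 0.0437).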
